A study of Mus musculus with 6 samples.

Results

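The 10 genes described here were 6 immediate early genes (Fos, Fosb, Jun, Junb, Egr1 and Ier2) and 4 feedback inhibitors of ERK signaling (Dusp2, Dusp5, Dusp6 and Spred1). They were chosen by name, and their Entrez identifiers in the tables are 14281, 14282, 16476, 16477, 13653 and 15936 for the first 6 and 13537, 240672, 67603 and 114715 for the other 4, in that order. All 10 had a row in the table of every culture, among the 17060 genes listed in any culture, and all 10 were among the 12306 genes that passed the filter on low counts. The RNA came from lineage-negative BM cells of WT mice, a fraction that holds hematopoietic stem and progenitor cells and that matures into erythroblasts when grown with EPO. The cells were cultured in the EPO medium for 48 hours with the vehicle DMSO or with NUP-17d (10 μM), a small molecule developed against the protein Plek2, and each condition had 3 cultures. No allele or other agent set the groups apart. The sources do not say whether the cultures of a condition came from separate mice, so the p-values measure only the spread between these cultures, which may be technical.

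Immediate early genes are transcribed within minutes of a growth factor or cytokine signal, without new protein synthesis, and their mRNAs are short-lived. In erythroid precursors the EPO receptor and KIT both feed the Ras, RAF, MEK and ERK cascade, and ERK activates transcription factors bound at the promoters of these genes, among them serum response factor with its ELK partners and the factors of the CREB family. Genes for ERK phosphatases and for inhibitors that act on Ras and RAF are transcribed in response to the same cascade and limit it.

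The promoters are shown for Fos, Fosb and Junb, 3 AP-1 genes that fell by unequal amounts, and for Dusp5, the only one of the 8 genes with a promoter entry that held the binding letters of serum response factor. Each runs 5′ to 3′ on the strand of the gene, from 250 bases before the start of the transcript to 50 after it, in RefSeq sequence of the build GRCm38.p6. Capitals mark matches to TGACG, the core of the cAMP response element, on either strand, and in Dusp5 also 2 adjoining CArG boxes. Fos lay at chr12:85473640-85473939 (plus strand), Fosb at chr7:19309996-19310295 (minus strand), Junb at chr8:84978699-84978998 (minus strand) and Dusp5 at chr19:53528895-53529194 (plus strand).
Fos: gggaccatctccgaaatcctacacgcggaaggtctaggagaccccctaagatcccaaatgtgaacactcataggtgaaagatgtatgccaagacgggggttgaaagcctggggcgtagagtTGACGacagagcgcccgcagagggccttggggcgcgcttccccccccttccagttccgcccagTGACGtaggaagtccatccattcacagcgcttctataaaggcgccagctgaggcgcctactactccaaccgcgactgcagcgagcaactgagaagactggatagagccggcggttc
Fosb: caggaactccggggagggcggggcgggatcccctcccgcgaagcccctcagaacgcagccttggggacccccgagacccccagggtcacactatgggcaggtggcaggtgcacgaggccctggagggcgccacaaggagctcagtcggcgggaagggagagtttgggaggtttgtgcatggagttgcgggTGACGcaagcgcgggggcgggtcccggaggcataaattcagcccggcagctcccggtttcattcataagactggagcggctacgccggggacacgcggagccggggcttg
Junb: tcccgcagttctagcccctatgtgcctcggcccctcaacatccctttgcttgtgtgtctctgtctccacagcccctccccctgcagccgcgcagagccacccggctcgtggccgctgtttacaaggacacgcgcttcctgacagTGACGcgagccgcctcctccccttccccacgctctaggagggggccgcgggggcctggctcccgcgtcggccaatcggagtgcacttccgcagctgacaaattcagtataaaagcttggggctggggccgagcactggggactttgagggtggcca
Dusp5: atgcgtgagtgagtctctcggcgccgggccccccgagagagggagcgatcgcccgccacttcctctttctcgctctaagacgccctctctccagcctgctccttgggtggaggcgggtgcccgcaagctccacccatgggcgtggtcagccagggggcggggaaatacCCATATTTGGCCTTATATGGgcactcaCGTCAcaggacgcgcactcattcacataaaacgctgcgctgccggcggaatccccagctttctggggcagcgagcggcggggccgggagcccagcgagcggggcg

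Promoters were matched for 8 of the 10 genes, all but Egr1 and Ier2. TGACG was found in 5 of the 8, with its first base at -129 and -66 from the start in Fos, at -60 in Fosb, at -106 in Junb, at -55 in Dusp5 and at 6 in Dusp2. In all 32851 promoters of the same length, from 27025 genes, TGACG was found in 20.8%. The CArG box was found in Dusp5 alone, with first bases at -82 and -72, against 1.63% of all promoters. Neither the full palindrome TGACGTCA, present in 1.79% of all promoters, nor the AP-1 letters TGANTCA, present in 7.81%, was found in any of the 8. Both strands were searched, and TGACGTCA contains TGACG. These matches describe the letters in a 300-base window and are not measurements of binding. Sites outside the window were not searched, so a gene without a match may still hold such letters further away.

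Depth was nearly even: the 3 DMSO cultures held between 20278433 and 20419018 expected counts, and the 3 NUP-17d cultures between 20076409 and 20170197. Hemoglobin genes took 18.3% to 20.3% of the counts with DMSO and 11.8% to 13.1% with NUP-17d, which leaves more reads for every other gene at the same total. Counts were scaled by TMM, which sets the bulk of genes level and gave factors of 0.887 to 0.930 for DMSO and 1.08 to 1.11 for NUP-17d. How much of the gap between these factors comes from the hemoglobin genes was not tested. The erythroid label was borne out by the 12 erythroid markers examined, whose summed level was 219266 to 253282 CPM (a gene's count scaled to the library size) with DMSO. All 12 were lower with NUP-17d, where the sum was 121169 to 135572 CPM. Markers of neutrophils (3999 to 4178 CPM with DMSO and 4097 to 4376 with NUP-17d), macrophages (641 to 700 and 688 to 759), mast cells and basophils (315 to 328 and 292 to 302) and megakaryocytes (463 to 512 and 535 to 555) were also present, so the cultures were mixed. With NUP-17d, 6 of 8 megakaryocyte markers were higher and 0 lower, and 3 of 10 neutrophil markers were higher and 1 lower. Of 10 macrophage markers, 2 were higher and 3 lower. Of 7 tested mast cell and basophil markers, 1 was higher and 3 lower. Of 8 eosinophil markers, 0 were higher and 3 lower, and of 8 lymphocyte markers, 0 and 2. Of 7 tested stem and progenitor markers, 2 were higher and 1 lower. Over all tested genes, 16.4% were higher and 18.9% lower. Mcpt4, a mast cell protease gene, was at 0 in all cultures. In bulk RNA, fewer cells of a type and less RNA per cell cannot be told apart. The part of these marker shifts in the results on the 10 genes was not tested.

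With NUP-17d, 6 of the 10 genes were lower, 1 was higher and 3 did not pass the test (edgeR's quasi-likelihood test, Benjamini-Hochberg adjusted over all 12306 genes, threshold 0.05). The 6 lower genes were the 6 immediate early genes and the higher gene was Spred1, and the 3 phosphatase genes Dusp2, Dusp5 and Dusp6 had fold changes above 1 that were not called. Of all tested genes, 35.3% were called, 16.4% as higher and 18.9% as lower, which is the background for these counts. The median log2 fold change was -0.18 over the 10 genes and 0.014 over all tested genes. The groups did not overlap for 9 of the 10 genes, against 46.0% of all tested genes, and the exception was Fos. With library totals in place of TMM, the median of all genes rose to 0.28, and 5 of the 10 genes were called higher (Fos, Dusp2, Dusp5, Dusp6 and Spred1) and 3 lower (Fosb, Jun and Egr1), beside 68.7% and 5.36% of all genes. Measured from the median of all genes, each gene's change was nearly the same under both scalings: Fos lay 0.15 below it on the log2 scale under either. All directions given here are thus relative to the bulk of genes.

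**Figure D1:**
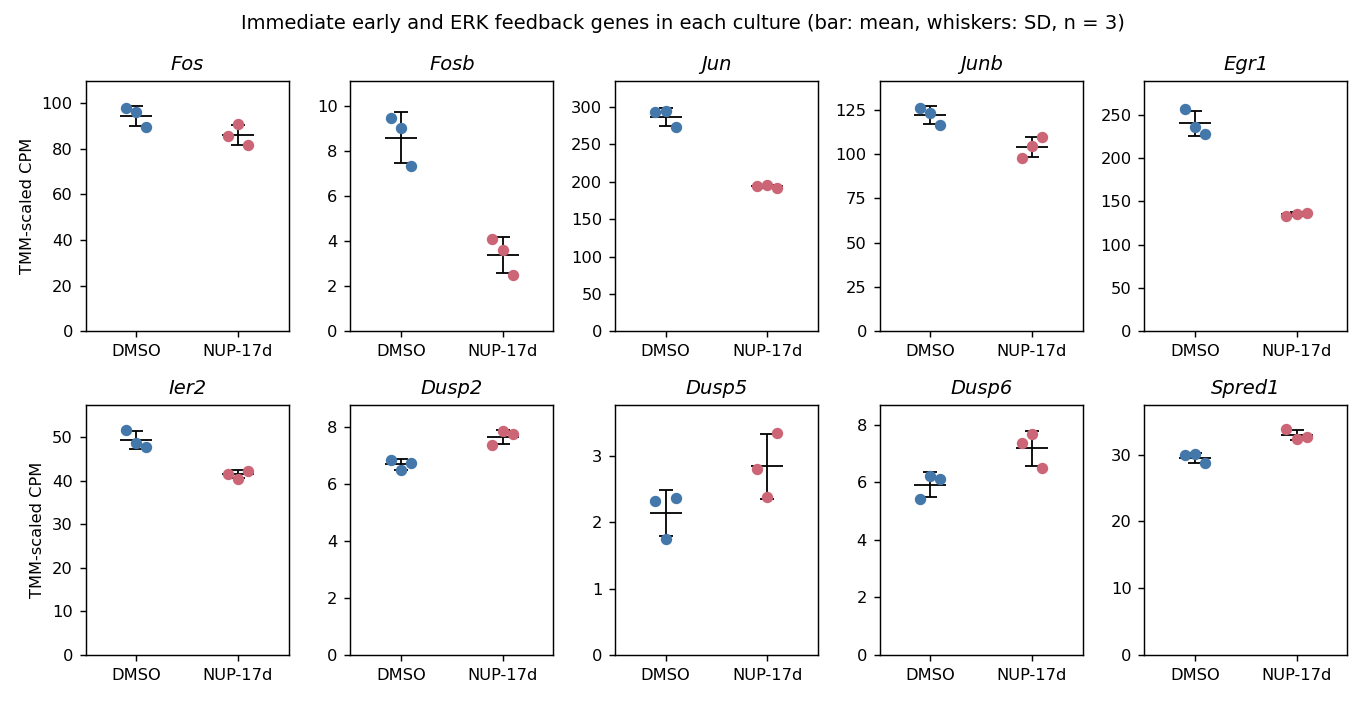
TMM-scaled CPM of each gene (vertical axes, each from 0) in the 3 DMSO and 3 NUP-17d cultures, 1 point per culture, with the mean as a bar and the SD as whiskers. The groups are apart in every panel except Fos, and the widest gaps are those of Fosb, Jun and Egr1.

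Fosb, which encodes an AP-1 subunit that pairs with JUN proteins, had the largest fall among the 10. Its level was 9.45, 9.01 and 7.30 CPM in DMSO cultures 1, 2 and 3 and 4.07, 3.59 and 2.47 CPM in NUP-17d cultures 1, 2 and 3. The lowest DMSO culture stood well above the highest NUP-17d culture. The level dropped by 60.6% (log2 fold change -1.34 ± 0.14 SE, adjusted p = 2.84e-08). These levels rest on 54 to 171 reads per culture. The Fosb row pools 2 transcripts, so the full-length and truncated FosB forms could not be separated.

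Fos, the founding member of the same family, was far more abundant per length than Fosb (44.4 against 2.24 TMM-scaled FPKM with DMSO). It had 97.8, 95.9 and 89.4 CPM with DMSO and 85.4, 90.7 and 81.7 CPM with NUP-17d. NUP-17d culture 2 lay above DMSO culture 3, so the groups overlapped. The fitted level fell by 8.90% (log2 fold change -0.13 ± 0.044 SE, adjusted p = 0.0177), and it lost the call without DMSO culture 1 (0.0943), without DMSO culture 2 (0.073) or without NUP-17d culture 3 (0.0977), each value being an adjusted p. With library totals Fos was called higher (log2 fold change 0.13, adjusted p = 0.0154).

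Jun encodes the partner that FOS proteins need to bind AP-1 sites, and it had the highest level per length of the 10 genes. It had 294, 294 and 273 CPM with DMSO and 195, 195 and 192 CPM with NUP-17d. The NUP-17d cultures lay close together and far below the DMSO cultures. The level dropped by 32.4% (log2 fold change -0.56 ± 0.036 SE, adjusted p = 1.37e-12). Junb, a weaker activator of the same family that can hold JUN activity back, had 126, 123 and 117 CPM with DMSO and 98.1, 104 and 110 CPM with NUP-17d. The groups were apart by a smaller margin, and the fall was 14.8% (log2 fold change -0.23 ± 0.042 SE, adjusted p = 9.42e-05). With library totals Junb changed sign and was not called (0.037, adjusted p = 0.446). Jun lies at chr4:95049034-95052222 (minus strand, GRCm38), where it shares 232 exonic bases with the antisense gene Junos. Whether the counting used strand is unclear, and without it reads from the pair cannot be told apart.

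The shares of the AP-1 genes within their families can be read inside each culture, without any scaling between libraries. Fosb made up 4.42%, 4.29% and 3.72% of the summed FPKM of the Fos family (Fos, Fosb, Fosl1 and Fosl2) with DMSO and 2.19%, 1.86% and 1.41% with NUP-17d. The mean share was 4.14% ± 0.370 in DMSO and 1.82% ± 0.394 in NUP-17d cultures (SD, n = 3), and no culture of one group reached the other (exact permutation test over cultures, 2-sided, p = 0.1, which 3 against 3 cannot go below). Fos held 82.6% ± 0.284 and 84.0% ± 0.799 of that sum (n = 3). In the Jun family, Junb held 21.6%, 22.0% and 21.6% in the DMSO cultures and 25.6%, 26.5% and 27.0% in the NUP-17d cultures. The share of Jund, the most abundant of the Jun genes, was 49.0% ± 0.840 with DMSO and 45.5% ± 0.470 with NUP-17d (n = 3), again without overlap. Jun itself held 29.2% ± 0.636 and 28.1% ± 1.07 (n = 3), and these groups overlapped. The exact test gave p = 0.1 for Junb and Jund and p = 0.3 for Jun. The summed TMM-scaled FPKM of the Jun family was 304 ± 11.5 with DMSO and 214 ± 6.11 with NUP-17d (n = 3), and that of the Fos family was 53.8 ± 2.35 and 48.3 ± 2.24 (n = 3). Neither sum overlapped between the groups. Unlike the shares, these sums depend on the TMM scaling. Fos, which makes up most of the Fos family sum, had a log2 fold change of 0.13 with library totals.

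**Figure D2:**
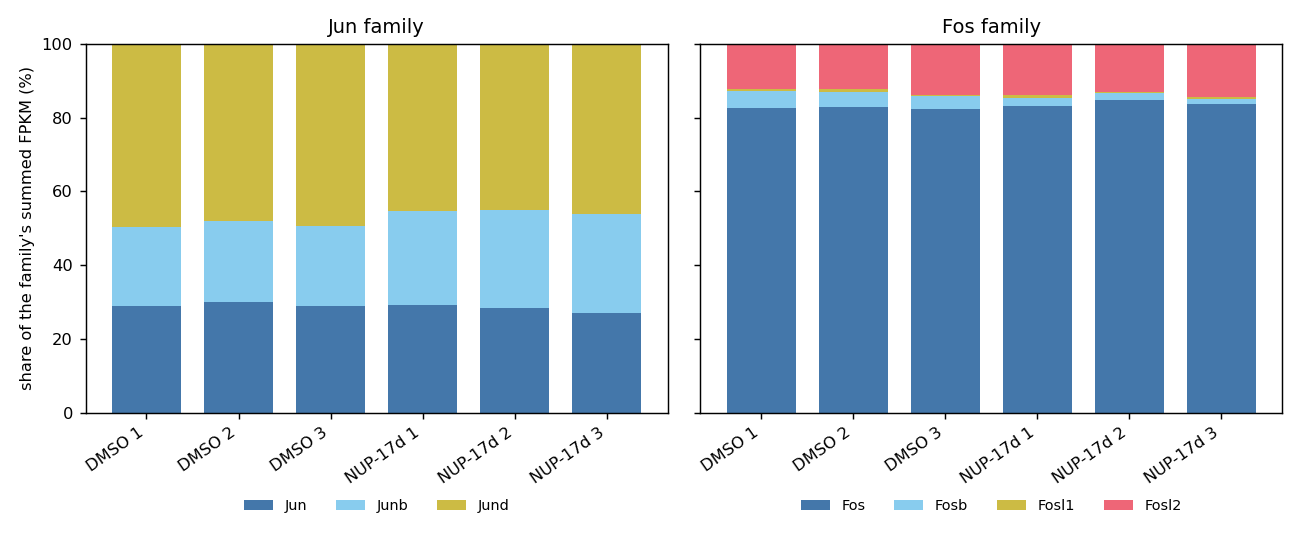
Share of each gene in the summed FPKM of the Jun family (left) and the Fos family (right), in percent, in each of the 6 cultures, 1 stacked bar per culture. The Junb segment is taller in all 3 NUP-17d cultures (25.6% to 27.0%) than in the DMSO cultures (21.6% to 22.0%), and the Fosb segment is thinner.

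Egr1, a zinc finger transcription factor gene and a common readout of ERK activity, had the lowest adjusted p among the 10. It had 257, 236 and 228 CPM with DMSO and 133, 136 and 137 CPM with NUP-17d. Every NUP-17d culture was far below every DMSO culture, and the NUP-17d cultures differed from one another by less than the DMSO cultures did. The level dropped by 43.6% (log2 fold change -0.83 ± 0.040 SE, adjusted p = 6.12e-15). It was lower under library totals too (log2 fold change -0.56, adjusted p = 5.07e-12). The gene lies at chr18:34861207-34864956 (plus strand, GRCm38) and has 3 exons.

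Ier2 encodes a small nuclear protein and is induced along with Fos and Egr1 by serum, and its gene lies at chr8:84661331-84662852 (minus strand). It had 51.7, 48.6 and 47.8 CPM with DMSO and 41.6, 40.5 and 42.3 CPM with NUP-17d, without overlap. The fall was 16.0% (log2 fold change -0.25 ± 0.046 SE, adjusted p = 9e-05), and with library totals the sign turned and the call was lost (0.015, adjusted p = 0.782). The ratio of Egr1 to Ier2 reads was 4.97, 4.85 and 4.76 with DMSO and 3.21, 3.36 and 3.24 with NUP-17d (exact permutation test, p = 0.1, n = 3). The ratio of Fos to Egr1 reads was 0.393 ± 0.0126 with DMSO and 0.634 ± 0.0361 with NUP-17d (n = 3, exact p = 0.1). Neither ratio overlapped between the groups.

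**Figure D3:**
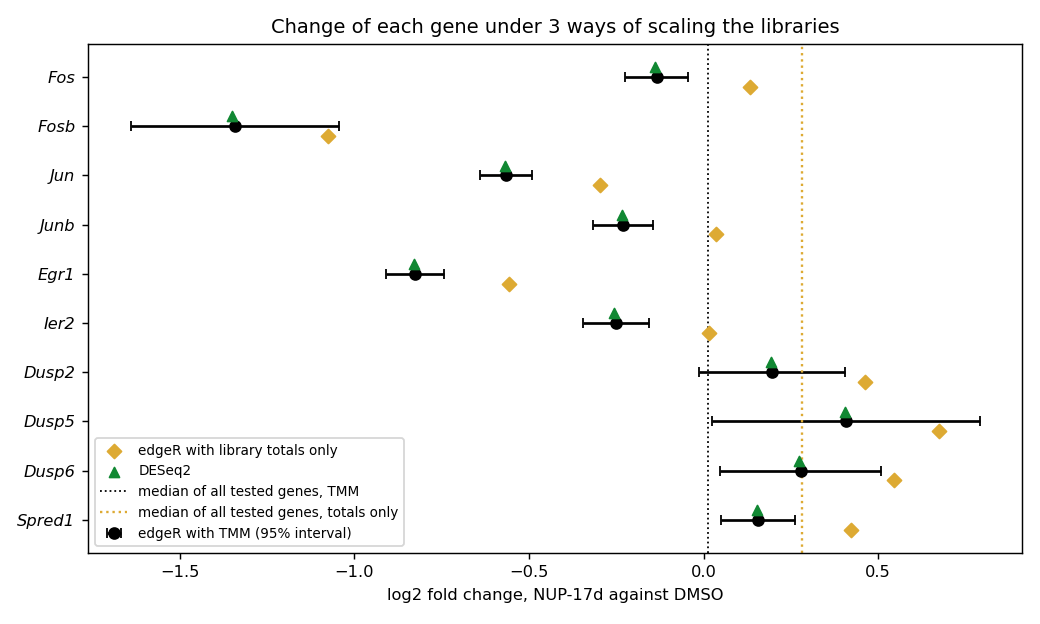
Log2 fold change (NUP-17d against DMSO) of the 10 genes by edgeR with TMM (black, with 95% intervals), by DESeq2 (green) and by edgeR with library totals only (yellow), with dotted lines at the median of all tested genes under TMM (0.014) and under totals (0.28). Totals move all 10 genes to the right by about the distance between the lines, so Fos, Junb and Ier2 change sign, whereas Fosb, Jun and Egr1 stay below 0.

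None of the 3 ERK phosphatase genes was called lower. Dusp6 encodes a cytoplasmic phosphatase specific for ERK, and its mRNA is a widely used measure of ERK output. The gene lies at chr10:99263231-99267488 (plus strand). It had 5.41, 6.22 and 6.12 CPM with DMSO and 7.37, 7.66 and 6.51 CPM with NUP-17d, without overlap. The log2 fold change was 0.28 with a 95% interval of 0.048 to 0.51, and it did not pass the threshold (adjusted p = 0.0549). Without NUP-17d culture 3 it did (log2 fold change 0.34, adjusted p = 0.032).

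Dusp5, which encodes a nuclear phosphatase that also anchors ERK, had the fewest reads of the 10 genes with DMSO and 33 to 73 reads per culture over both conditions. It had 2.32, 1.74 and 2.36 CPM with DMSO and 2.80, 2.38 and 3.34 CPM with NUP-17d, and the groups were parted by a narrow gap. The log2 fold change was 0.41 with an interval of 0.025 to 0.79 (adjusted p = 0.0923), so at this depth a change was not resolved after adjustment. Dusp5 shares 547 exonic bases with the antisense gene AC137853.2. Dusp2, a nuclear phosphatase gene at chr2:127336159-127338376 (plus strand) best known from activated leukocytes, had 6.85, 6.48 and 6.71 CPM with DMSO and 7.37, 7.84 and 7.74 CPM with NUP-17d. The groups were apart, the log2 fold change was 0.20 with an interval of -0.013 to 0.40, and it was not called (adjusted p = 0.138). The unadjusted intervals of all 3 lie above the fold changes of Jun, Egr1 and Fosb on the same scale. With library totals all 3 phosphatase genes were called higher, with log2 fold changes of 0.46 (Dusp2), 0.67 (Dusp5) and 0.54 (Dusp6).

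Spred1, which encodes a membrane protein that blocks Ras and RAF activation through neurofibromin, was the only gene of the 10 called higher with TMM. It had 29.9, 30.1 and 28.7 CPM with DMSO and 33.8, 32.4 and 32.6 CPM with NUP-17d, and all NUP-17d cultures were above all DMSO cultures. The rise was 11.4% (log2 fold change 0.16 ± 0.051 SE, adjusted p = 0.018). DESeq2 gave nearly the same fold change (0.15) without a call (adjusted p = 0.111), and the call was also lost without DMSO culture 3 (adjusted p = 0.0801) or NUP-17d culture 1 (adjusted p = 0.0675). The Spred1 row pools 2 transcripts.

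The ratio of Dusp6 to Egr1 reads, both of which rise with ERK activity in many cells, was 0.0211, 0.0263 and 0.0269 with DMSO and 0.0552, 0.0563 and 0.0474 with NUP-17d (exact permutation test, p = 0.1, n = 3). The ratio of Dusp6 to Mapk3, the gene for ERK1 itself, was 0.0592 ± 0.00323 and 0.0585 ± 0.00648 (n = 3, exact p = 1.0). Per length, the 3 phosphatase genes summed to 7.66 to 8.31 TMM-scaled FPKM with DMSO and 9.56 to 9.96 with NUP-17d.

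Levels between genes were set side by side per length, in FPKM scaled by the TMM factors. With DMSO the order was Jun (88.8), Egr1 (77.2), Junb (66.0), Fos (44.4), Ier2 (32.0), Spred1 (4.65), Dusp2 (4.09), Fosb (2.24), Dusp6 (2.07) and Dusp5 (1.86), as means of 3 cultures. The last 3 had overlapping ranges between neighbors, and all other neighbors were apart. With NUP-17d the order was Jun (60.2), Junb (56.4), Egr1 (43.7), Fos (40.6), Ier2 (27.0), Spred1 (5.16), Dusp2 (4.69), Dusp6 (2.53), Dusp5 (2.48) and Fosb (0.883). Jun overlapped Junb, and Dusp6 overlapped Dusp5. Egr1 thus stood above Junb with DMSO and below it with NUP-17d, and Fosb passed from a range shared with Dusp6 to the lowest place. Apart from Fosb, the immediate early genes stood far above the 4 feedback genes in both conditions.

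**Figure D4:**
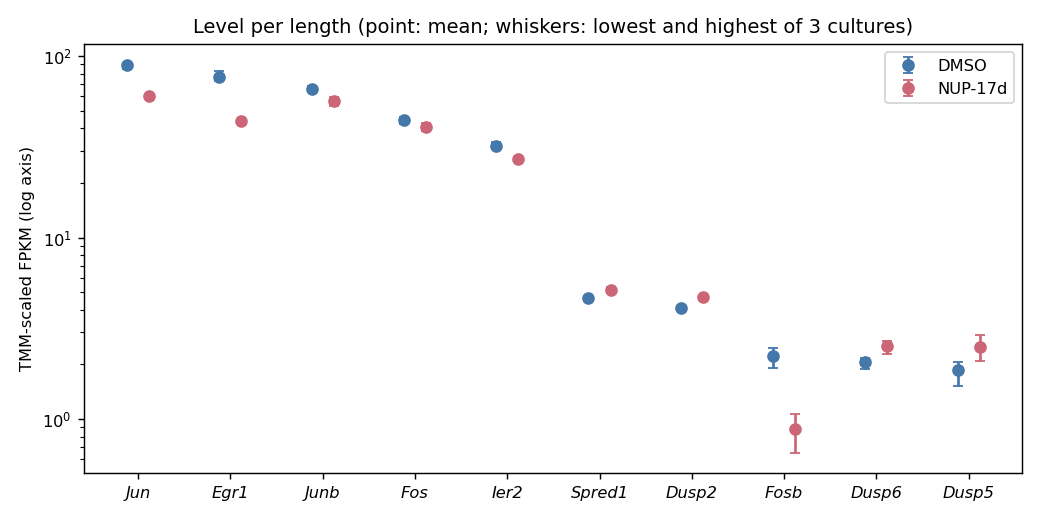
Mean TMM-scaled FPKM of the 10 genes (log axis) with DMSO and with NUP-17d, whiskers spanning the lowest and highest of 3 cultures, in the order of the DMSO means. Jun, Egr1, Junb, Fos and Ier2 lie between 27.0 and 88.8, the other genes between 0.883 and 5.16, and Fosb drops below the phosphatase genes with NUP-17d.

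The genes also shared a compact structure that played no part in choosing them. In the GENCODE annotation of GRCm38, 9 of the 10 had 4 exons or fewer, against 20.5% of tested genes, and Jun, Junb and Ier2 had a single exon. The median span was 3567 bases, against 21810 bases for all tested genes. Spred1 was the exception, with 7 exons over 60906 bases at chr2:117121374-117182279 (plus strand). The destabilizing letters ATTTA in the 3′ UTR had a median density of 2.23 per kilobase in the 10 genes and 1.28 in tested genes. This density was not a shared trait, as it ran from 6.88 in Dusp2 and 4.91 in Fos to 0 in Ier2. Fosb (0.466), Dusp6 (0.841) and Dusp5 (0.902) also lay below the median of tested genes, and the remaining genes lay above it. The longer nonamer form of this AU-rich element was found in Fos alone, against 7.53% of tested genes. These are descriptions of the annotation and were not set against the changes.

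Of 34 other immediate early genes, 32 were tested, and 5 were higher (15.6%), 6 lower (18.75%) and 21 not called. Both shares were near the backgrounds of 16.4% and 18.9%. With library totals, 21 were higher and 2 lower, beside 68.7% and 5.36% of all genes. The median log2 fold change with TMM was 0.027. Btg2, an antiproliferative p53 target, was 496, 468 and 467 CPM with DMSO and 249, 241 and 248 CPM with NUP-17d. The groups lay far apart (log2 fold change -0.95, adjusted p = 3.68e-17). Jund fell too (log2 fold change -0.62, adjusted p = 5.21e-13), and Btg1, a relative of Btg2, was lower with TMM (-0.20, adjusted p = 4.74e-05) and not with library totals (0.062, adjusted p = 0.155). Rhob, a growth factor induced small GTPase gene (0.36, adjusted p = 4.48e-07), and Sgk1, a kinase gene downstream of PI3K (0.34, adjusted p = 4.95e-05), were higher.

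Of 20 other feedback and output genes of ERK, 15 were tested, and 4 were higher (26.7%), 3 lower and 8 not called, against 16.4% and 18.9% of all tested genes. The share of lower genes was thus near the background. The list's median log2 fold change was 0.21. The 4 higher genes became 2 without DMSO culture 3 and 1 with DESeq2, and library totals gave 9 higher and 2 lower, beside 68.7% and 5.36% of all genes. Phlda1, an ERK output gene, was higher (log2 fold change 0.50, adjusted p = 0.00124), as was Dusp7, the gene of another cytoplasmic phosphatase specific for ERK (0.22, adjusted p = 0.0063). The 3 lower genes encode phosphatases, Dusp8 and Dusp16 ones known to act mainly on JNK or p38 and Dusp1 one that acts on all of these kinases. Dusp10, named after its values were seen as another phosphatase gene of that specificity on the list, was not called (log2 fold change 0.044, adjusted p = 0.825). Dusp8 had 347, 316 and 330 CPM with DMSO and 170, 156 and 167 CPM with NUP-17d (-1.01, adjusted p = 1.23e-16), Dusp1 had a log2 fold change of -0.45 (adjusted p = 9.23e-07) and Dusp16 one of -0.26 (adjusted p = 3.93e-05). With library totals Dusp16 had a log2 fold change of 0.0078.

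Among 30 genes of the cascade itself, from receptors to ERK and its kinase substrates, 7 were higher (23.3%), 5 lower (16.7%) and 18 not called. Both shares were near the 16.4% and 18.9% of all tested genes. The list's median log2 fold change was 0.042. The 5 lower genes became 3 without DMSO culture 3 or without NUP-17d culture 2, and library totals gave 28 higher and 2 lower, beside 68.7% and 5.36% of all genes. Ksr1, the scaffold that holds RAF, MEK and ERK together, fell most (72.6, 74.6 and 64.1 CPM with DMSO and 45.6, 46.6 and 45.9 CPM with NUP-17d, log2 fold change -0.61, adjusted p = 1.12e-10). Epor, the gene for the EPO receptor, was lower (-0.38, adjusted p = 2.44e-07). Mapk3, which encodes ERK1 (0.30, adjusted p = 7.34e-07), and Gab2, an adaptor gene (0.28, adjusted p = 0.000143), were higher. These are mRNA levels, and the phosphorylation of ERK was not measured in these libraries.

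A list of transcription factor genes held 15 genes for SRF, its partners, the CREB family with its coactivators, and the MEF2 factors. Of these 15, 9 were higher, 3 lower and 3 not called, against 16.4% and 18.9% of all tested genes. The list's median log2 fold change was 0.11. Library totals gave 13 higher and 1 lower, beside 68.7% and 5.36% of all genes. Crem, whose products include a repressor that acts on cAMP response elements, had 21.5, 19.1 and 18.6 CPM with DMSO and 29.2, 32.6 and 32.8 CPM with NUP-17d (log2 fold change 0.68, adjusted p = 2.38e-09). The Crem row pools 17 transcripts, so the repressor could not be told apart from the other products. Mkl2, an actin-regulated SRF coactivator gene (0.36, adjusted p = 0.000247), and Crtc3, a CREB coactivator gene (0.30, adjusted p = 3.67e-05), were higher. Elk4, a partner of SRF that ERK phosphorylates (-0.47, adjusted p = 8.65e-07), and Atf1, a CREB relative (-0.19, adjusted p = 0.000356), were lower, and Atf1 changed sign with library totals (0.077). The binding of these factors at these promoters was not measured.

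Heat shock genes, which can rise together with immediate early genes when cells are stressed in handling, gave no gene called higher with TMM. Of 11 tested, 7 were lower and 4 not called, against 18.9% of all tested genes lower. The list's median log2 fold change was -0.27. With library totals, 4 were higher and 1, Bag3, was lower, beside the same 68.7% and 5.36%. Under TMM scaling, Bag3 (-0.41, adjusted p = 4.5e-09), Hsp90aa1 (-0.30, adjusted p = 6.83e-08), Hspd1 (-0.28, adjusted p = 2.42e-07) and Hsph1 (-0.27, adjusted p = 3.76e-06) were lower, and Dnaja1 was lower there (-0.14, adjusted p = 0.00622) and higher with library totals (0.13, adjusted p = 0.00926). Their part in the levels of the immediate early genes was not tested.

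**Figure D5:**
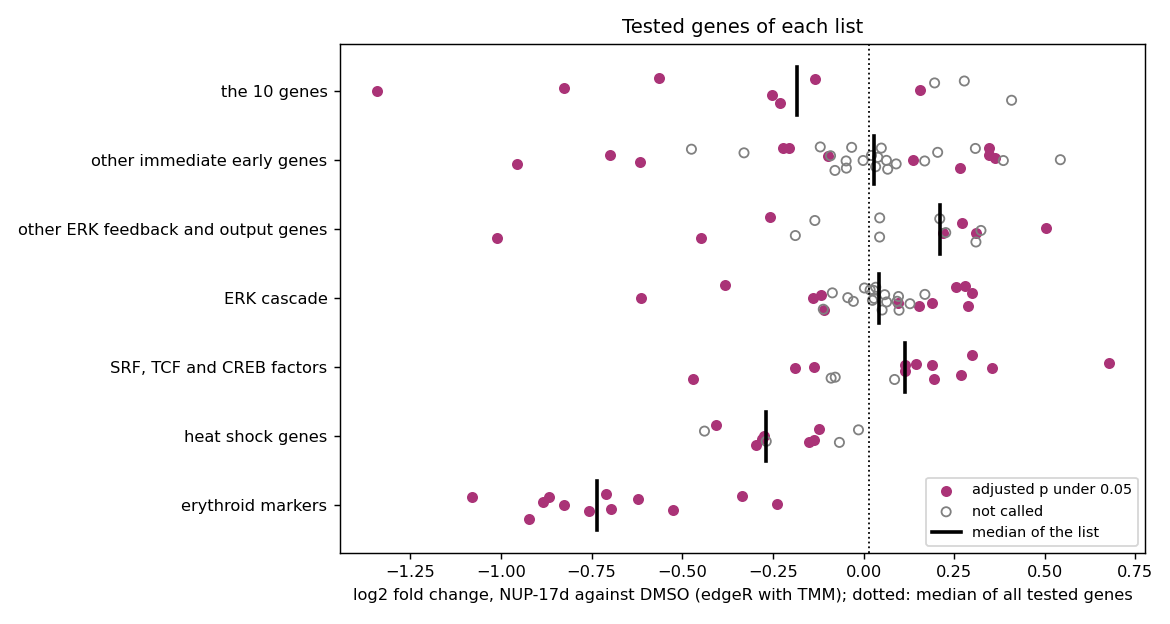
Log2 fold change (NUP-17d against DMSO, edgeR with TMM) of every tested gene in 7 lists, 1 point per gene, filled where the adjusted p was under 0.05, with the median of each list as a bar and the median of all tested genes (0.014) as a dotted line. The 10 genes, the heat shock genes and the erythroid markers have medians below 0 (-0.18, -0.27 and -0.73), and the other lists have medians between 0.027 and 0.21.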

How the data were processed

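Per the labels, poly(A) RNA of 3 DMSO and 3 NUP-17d cultures was read on a DNBseq platform, whereas the study's methods name a stranded Illumina kit, so the use of strand is unclear. The authors deposited, for each culture, an expected count (an estimate of the reads of a gene, not normalized) and an FPKM value (that count scaled by transcript length and library total, with no correction for composition). The submitters' processing notes name the build mm10. The aligner and the counting program are not given in the sources used here.

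A gene missing from a culture's table was taken as 0. Rounding made the expected counts whole, and all genes were compared with edgeR 4.0.16 in R 4.3.3 (filterByExpr, TMM, glmQLFit and glmQLFTest, Benjamini-Hochberg adjustment, threshold 0.05). Fold changes are NUP-17d against DMSO. Levels are CPM or, between genes, FPKM, both scaled by the TMM factors. Shares and ratios were compared by 2-sided exact permutation tests over cultures, which cannot go below p = 0.1. Cultures of a condition differed by more than sampling noise (chi-square per degree of freedom 1.84 to 4.59) and all were counted as separate samples. Alternatives were median-ratio size factors, scaling to library totals alone, DESeq2 1.42.0, keeping genes of low count, dropping hemoglobin genes before scaling, a replicate block, omitting 1 culture at a time, and limma 3.58.1 on FPKM values of genes averaging at least 1, taken as log2 after adding 1 or 0.1. The fits were also run on simulated data with no built-in shift in composition, which cannot test the choice of scaling. Few genes were changed there and all genes shared the same spread, whereas 35.3% of tested genes were called in the data. The simulated recovery therefore need not hold for these data. At a simulated 1.25-fold change, edgeR with TMM recovered 40 of 50 changed genes and DESeq2 27 of 50. Over the whole simulation, which also held larger changes, they made 15 and 4 false calls among 12219 genes. All 10 genes are reported, and up to 5 called genes with the lowest p-values from each of 5 other lists. A gene chosen by this rule is not reported here. The family members Fosl1 and Fosl2 are named because they enter the shares, and the genes and lists were chosen with earlier results of these data known. Gene structures came from GENCODE on GRCm38 and promoters from RefSeq on GRCm38.p6.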

Additional observations from a re-analysis of the deposited data

How the results depend on the processing

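Fosb, Jun and Egr1 kept their direction and their call under every alternative tried. Median-ratio size factors, no filter on low counts and removal of hemoglobin genes left the counts of the 10 genes at 1 higher and 6 lower. Over all genes, 4346 were called, and 9113 with library totals, 8494 with limma on log2(FPKM + 1) and 8480 with limma on log2(FPKM + 0.1). These 3 settings carry no correction for composition, and they shift the median of all genes to 0.28, 0.24 and 0.27. Each gave 5 of the 10 genes higher and 3 lower. DESeq2 called 3153 genes, and 0 of the 10 as higher. Leaving out 1 culture gave 0 to 2 of the 10 higher.

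With library totals, log2(FPKM + 1) and log2(FPKM + 0.1), in that order, the log2 fold changes that changed sign were 0.13, 0.13 and 0.14 for Fos, 0.037, 0.040 and 0.040 for Junb, 0.015, 0.019 and 0.020 for Ier2, 0.062, 0.065 and 0.067 for Btg1, 0.0078, 0.0085 and 0.0093 for Dusp16, 0.077, 0.079 and 0.081 for Atf1, and 0.13, 0.13 and 0.13 for Dnaja1. In the same order, other immediate early genes had 21, 20 and 20 higher and 2, 2 and 2 lower, other ERK feedback genes had 9, 7 and 7 higher, the cascade had 28, 28 and 28 higher and 2, 2 and 2 lower, the SRF, TCF and CREB list had 1, 1 and 1 lower, and heat shock genes had 4, 5 and 5 higher and 1, 1 and 1 lower. DESeq2 called 1 other ERK feedback gene higher. Leaving out 1 culture gave 2 to 4 other ERK feedback genes higher and 3 to 6 cascade genes lower.

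The replicate block gave 4543 calls, 2121 higher and 2422 lower, and changed no call among the 10 genes. Same-numbered cultures deviated from their group means with correlations of 0.066, 0.0063 and 0.0049. These low values gave no sign of pairing by number. They cannot exclude a shared mouse or batch, because noise in the counts can hide a small shared part. The sources do not say whether same-numbered cultures were paired. Depth limits Dusp5, Fosb and Dusp6 most, at 33 to 171 reads per culture.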
